A study of Mus musculus with 28 samples.

Results

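Neurotransmitter receptor subunit genes were placed on maps of H3K9me2 domains from mouse embryonic stem cells (mESCs) and 2-cell-like cells (2CLCs). The genes were chosen by symbol, with earlier results of these data known. Protein-coding genes on chromosomes 1 to 19 were taken. Their symbols start with Gabra, Gabrb, Gabrg, Gabrr, Gria, Grik, Grid, Grm, Chrna or Chrnb and a digit, or Grin and 1, 2 or 3. This rule took 53 of 20807 genes of the GENCODE M21 annotation (mm10). They comprise 14 GABA-A receptor genes, 13 nicotinic acetylcholine receptor genes, 8 metabotropic glutamate receptor genes, 7 NMDA, 5 kainate, 3 AMPA and 2 delta glutamate receptor genes, and Grid2ip, whose symbol matches although it is named as an interacting protein of a delta receptor. Each gene was given 2 readouts per domain set. The start is the 5′ end of the gene, inside or outside a domain, and the body cover is the percent of bases from start to end that lie in domains. Of the 53 genes, 24 are at least 100 kb long and are called long below, against 2372 of all 20807.

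All cells came from lines of BL6/129 hybrid mESCs in which both copies of Ehmt2, encoding the H3K9 methyltransferase, carry a dTAG degron with a mCherry reporter, so the control cells carry the tag too. The degrader dTAG-13 removes the tagged protein and DMSO is its solvent. For the sorted samples, 1 clone with a MERVL-GFP reporter was treated for 72 h with DMSO or dTAG-13 and separated into GFP-negative mESCs and GFP-positive 2CLCs, which share features of the embryo at the 2-cell stage, with 3 immunoprecipitation and 3 input libraries for each of the 4 conditions. TTNBP, an agonist of retinoic acid receptors, was present for 2 of the replicates per the labels, which do not name them, whereas the study's methods give it for the sorted cells with no such limit, so that its part in a difference between sets cannot be told apart here. Bulk mESCs kept for 24 h in DMSO gave 2 immunoprecipitation and 2 input libraries of the 28 in all. The report rests on 1 domain set for each sorted condition (mESC DMSO, mESC dTAG, 2CLC DMSO and 2CLC dTAG). The fifth set, whose name gives neither state nor treatment, is called the unnamed set and belongs to no group. A set is 1 list of positions for a whole condition, so no difference between sets below could be compared with the spread between cultures and no test was made. Domains mark where the signal is high within a set. A gene that stays in, leaves or enters domains therefore does not show the mark kept, lost or gained. The paper reports globally reduced H3K9me2 after EHMT2 depletion in both cell states. Domains covered between 44.6% and 52.4% of chromosomes 1 to 19 in the 4 sorted sets, with median widths of 145 kb (DMSO) and 60 kb (dTAG) in mESCs, and of 120 kb (DMSO) and 55 kb (dTAG) in 2CLCs.

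AMPA, kainate and NMDA receptors are glutamate-gated cation channels that carry fast excitation in the brain, whereas metabotropic glutamate receptors signal through G proteins. GABA-A receptors are chloride channels of fast inhibition, and nicotinic receptors are cation channels opened by acetylcholine in muscle, ganglia and brain. H3K9me2 is a repressive histone mark laid down by EHMT2 and its partner EHMT1, often over wide domains, and receptor genes of mature neurons are as a rule silent in pluripotent cells. Transcript levels were not analysed here.

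The start regions of 4 genes are shown because they stand for the placements met below: a start in domains of all 4 sorted sets (Gabrb1), a start outside although its body is covered (Grm8), a start in a narrow gap (Gabra2), and a start that lay in a DMSO domain and outside in dTAG (Gabra6 in 2CLCs). Gabrb1 and Grm8 are the longest genes of their kind with an entry in the RefSeq table, and the other 2 were chosen after their values had been seen. Each sequence runs 5′ to 3′ on the strand of the gene, from 250 bases before the RefSeq start to 50 after it in GRCm38.p6, with CG dinucleotides in capitals. The regions are chr5:71657671-71657970 on the plus strand for Gabrb1, chr6:28135097-28135396 on the minus strand for Grm8, chr5:71095800-71096099 on the minus strand for Gabra2 and chr11:42321023-42321322 on the minus strand for Gabra6.
Gabrb1: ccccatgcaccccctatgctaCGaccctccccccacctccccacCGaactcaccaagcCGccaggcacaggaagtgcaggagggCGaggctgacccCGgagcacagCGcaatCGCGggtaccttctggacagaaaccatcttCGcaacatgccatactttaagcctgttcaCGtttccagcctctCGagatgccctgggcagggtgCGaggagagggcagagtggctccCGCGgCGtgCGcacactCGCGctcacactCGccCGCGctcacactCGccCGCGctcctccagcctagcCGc
Grm8: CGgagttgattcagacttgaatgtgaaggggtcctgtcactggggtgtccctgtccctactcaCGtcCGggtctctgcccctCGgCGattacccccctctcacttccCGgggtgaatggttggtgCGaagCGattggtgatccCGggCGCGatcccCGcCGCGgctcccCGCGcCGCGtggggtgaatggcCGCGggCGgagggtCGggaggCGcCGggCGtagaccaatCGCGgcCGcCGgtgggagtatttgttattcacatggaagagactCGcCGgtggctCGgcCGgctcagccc
Gabra2: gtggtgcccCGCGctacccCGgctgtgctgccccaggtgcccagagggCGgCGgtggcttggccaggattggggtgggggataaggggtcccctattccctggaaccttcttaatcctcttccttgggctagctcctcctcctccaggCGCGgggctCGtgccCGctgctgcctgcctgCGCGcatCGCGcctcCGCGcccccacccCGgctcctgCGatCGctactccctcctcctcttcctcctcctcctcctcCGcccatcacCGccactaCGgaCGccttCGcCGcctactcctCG
Gabra6: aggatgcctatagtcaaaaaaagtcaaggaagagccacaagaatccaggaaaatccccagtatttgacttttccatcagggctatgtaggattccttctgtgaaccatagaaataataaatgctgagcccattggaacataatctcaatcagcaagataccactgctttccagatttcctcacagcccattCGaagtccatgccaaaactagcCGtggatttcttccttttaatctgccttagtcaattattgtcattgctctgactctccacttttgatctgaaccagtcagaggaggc
CG dinucleotides numbered 25 in Gabrb1, 33 in Grm8, 25 in Gabra2 and 2 in Gabra6. RefSeq entries were found for 37 of the 53 genes, under 80%, so a comparison of promoter composition between groups of receptor genes is void and is not given. Both 9-base arms of the element bound by the neuronal repressor REST were searched on either strand in windows of the same 300 bases. TTCAGCACC was found at Grm2 and in 0.395% of the windows of all genes, and GGACAGCGC was found at Gria2 and in 0.599%. The starts of Grm2 and Gria2 lay outside domains in all 4 sorted sets.

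Receptor genes were covered by H3K9me2 domains along their bodies more often than at their starts. In mESC DMSO, 15 of the 53 starts lay in a domain, or 28.3%, against 21.4% of all 20807 genes, and 26 of the 53 bodies were covered over at least 50%, against 22.2%. In mESC dTAG the counts were 14 starts, against 22.8% of all genes, and 17 bodies, against 21.7%. In 2CLC DMSO, 19 starts were in domains, against 22.1% of all genes, and 25 bodies were covered over at least 50%, against 22.3%. In 2CLC dTAG these were 13 starts, against 25.5%, and 19 bodies, against 24.0%. The share of starts thus lay nearest to that of all genes in the dTAG sets. The median body cover of the 53 genes was 49.1% (DMSO) and 0 (dTAG) in mESCs and 21.9% (DMSO) and 0 (dTAG) in 2CLCs, and that of all genes was 0 in every set. Values spanned the whole range from 0 to 100% in each set. Neighbouring receptor genes share domains, and the counts at the starts depended on this. With 1 gene kept for each locus of neighbours, the first by symbol, 41 genes remained, and all genes were left as they were. In mESCs, 8 starts (19.5%) were then in domains in DMSO and 8 (19.5%) in dTAG, both below the shares of all genes. In 2CLCs the counts were 12 (29.3%) and 9 (22.0%). Bodies covered over at least 50% then numbered 18 (43.9%) and 11 (26.8%) in mESCs and 17 (41.5%) and 13 (31.7%) in 2CLCs, each above the share of all genes. The median body cover of the 41 genes was 0 in every sorted set, as over all genes.

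**Figure D1:**
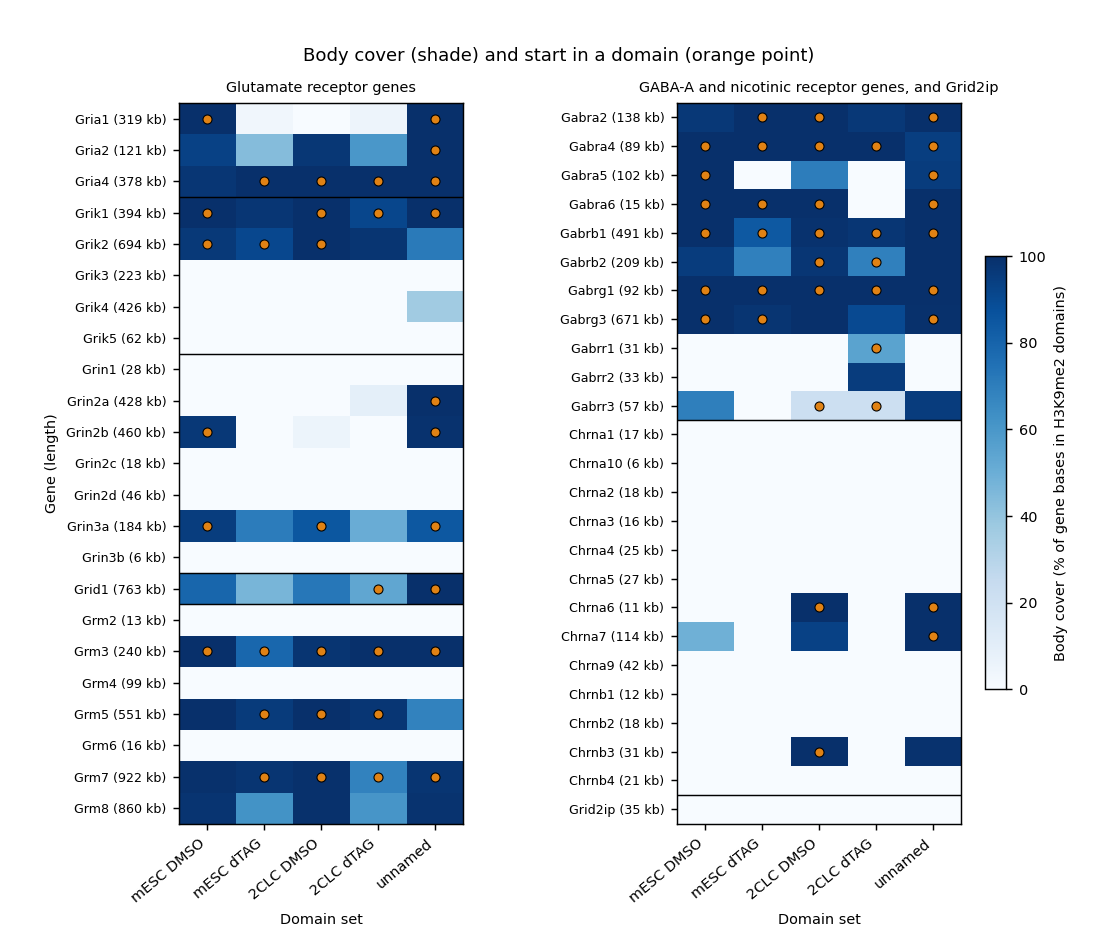
Body cover of 48 of the genes (rows, with gene length) in the 5 domain sets (columns), as shade from 0 to 100% of gene bases, with an orange point where the gene start lies in a domain. Most nicotinic receptor rows are white in every set, whereas 9 of the 11 GABA-A receptor rows shown are covered over at least 50% in mESC DMSO.

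The long receptor genes accounted for most of this cover. In mESC DMSO, 20 of 24 long receptor genes had at least 50% of the body in domains, against 29.8% of all long genes. The counts were 13 of 24 in mESC dTAG, against 19.5%, 18 of 24 in 2CLC DMSO, against 27.0%, and 15 of 24 in 2CLC dTAG, against 21.0%. Their median body cover was 97.1%, 65.3%, 97.4% and 60.4% in the order mESC DMSO, mESC dTAG, 2CLC DMSO and 2CLC dTAG, where all long genes had 0, 2.76%, 0 and 9.35%. Starts of long receptor genes were in domains in 11 of 24 cases in mESC DMSO, against 22.4% of all long genes. The start counts were 9 of 24 in mESC dTAG, against 21.0%, 12 of 24 in 2CLC DMSO, against 23.5%, and 9 of 24 in 2CLC dTAG, against 23.3%. The 29 shorter receptor genes differed less from genes of their length. Starts were in domains for 4, 5, 7 and 4 of these 29 in the same order of sets, or 13.8%, 17.2%, 24.1% and 13.8%, where all genes under 100 kb had 21.3%, 23.0%, 21.9% and 25.8%.

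In the DMSO sets, cover dipped at the starts of the long receptor genes. In mESC DMSO, the start itself was in a domain for 11 of the 24 genes, while the position 5 kb to either side was in a domain for 15 and the position 20 kb to either side for 19. All long genes dipped too, by fewer points but from a lower flank. They had 22.4% at the start, 27.7% at 5 kb upstream and 32.8% at 20 kb upstream. In mESC dTAG, 12 of the 24 genes were in a domain 20 kb upstream, 9 at the start and 10 at 20 kb into the gene. All long genes also stayed low downstream of the start there, with 28.9%, 21.0% and 20.7%. At the same positions, 15, 12 and 16 of the 24 genes were in a domain in 2CLC DMSO and 14, 9 and 8 in 2CLC dTAG. All long genes had 30.1%, 23.5% and 26.6% in 2CLC DMSO and 32.8%, 23.3% and 23.9% in 2CLC dTAG.

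**Figure D2:**
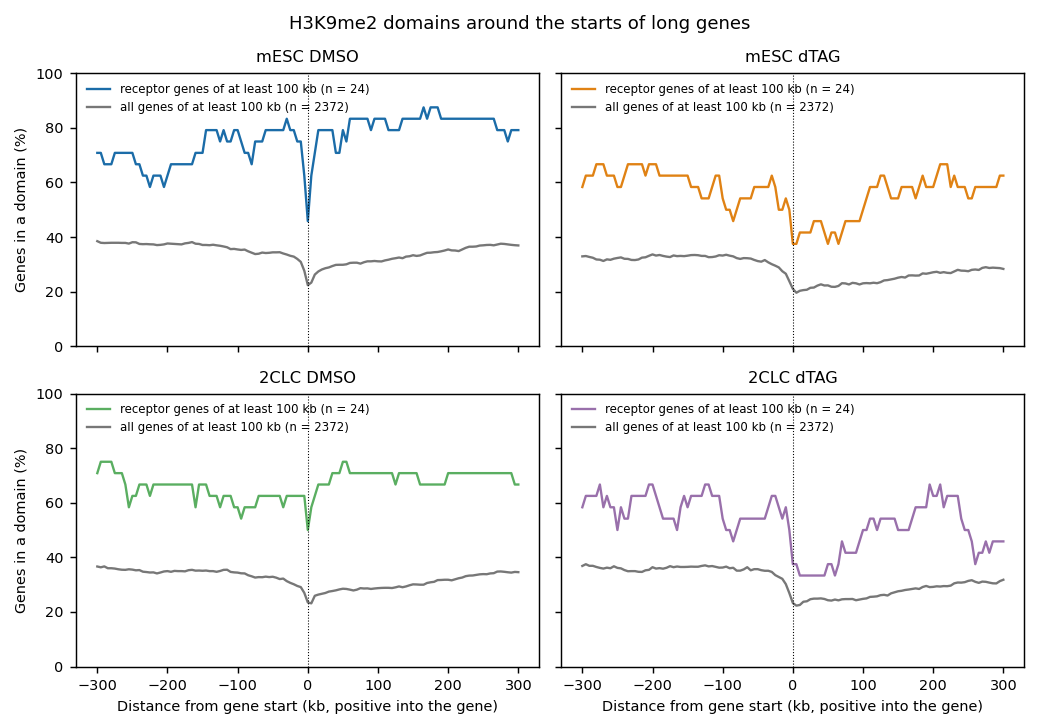
Percent of genes of at least 100 kb in an H3K9me2 domain (y axis) by distance from the gene start in kb, positive into the gene (x axis), for receptor genes (coloured, n = 24) and all genes (grey, n = 2372) in the 4 sorted sets. The coloured line of mESC DMSO dips at the start to 11 of 24 genes from 19 of 24 at 20 kb on either side.

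In mESC DMSO, many of these starts sat in narrow gaps. Here 9 of the 20 long receptor genes with at least 50% of the body in domains had the start outside, against 39.5% of all such long genes. The gap around the start had a median width of 10 kb and was at most 25 kb for 6 of the 9, or 66.7%, against 38.0% of such long genes, whose median gap was 60 kb. In 2CLC DMSO, 7 of 18 long receptor genes had this arrangement, against 32.8%, and 3 of the 7 gaps were at most 25 kb, or 42.9%, against 33.3%. The median gap there was 115 kb, wider than the 72.5 kb of all such long genes. Gabra2, Grm8 and Gria4 had their starts in mESC DMSO gaps of 5 kb, the width of 1 bin. Grm7 and Grm5 had theirs in gaps of 10 kb. Whether these starts lie in or out therefore rests on 1 or 2 bins. In 2CLC DMSO the start of Grm8 was again in a gap of 5 kb, whereas those of Gabra2, Gria4, Grm7 and Grm5 were inside domains.

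The AMPA receptor genes differed from each other. Below, 4 values for a gene are its body cover in mESC DMSO, mESC dTAG, 2CLC DMSO and 2CLC dTAG in that order. Gria1 (chr11:57011387-57330244), encoding a subunit of excitatory synapses, had 100%, 3.29%, 0.153% and 4.86%. Its start lay 418 kb inside a domain of 1295 kb in mESC DMSO and between 142 kb and 197 kb outside the nearest domain in the other 3 sorted sets. Domains thus covered the whole of Gria1 in a single sorted set, which does not give the level of the mark. Of that domain of 1295 kb, 54.4% was still in mESC dTAG domains. Gria2 (chr3:80681450-80802835), whose subunit limits calcium entry through the channel, had 93.1%, 43.6%, 97.2% and 60.1%, lower in dTAG in both cell states, with the start outside in all 4. Gria4 (chr9:4417896-4796234) had 97.5%, 100%, 100% and 100%. Domains thus held its whole body in both dTAG sets, which does not give the level of the mark.

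Most NMDA receptor genes lay outside domains, as did most of all genes. Grin1, the subunit that every NMDA receptor needs, and Grin2c, Grin2d and Grin3b had a body cover of 0 in all 5 sets. Each is under 100 kb, and of all genes under that length 62.7% had 0 in the 4 sorted sets. Grin2b (chr6:135713233-136173511), a glutamate-binding subunit prominent in the developing brain, had 96.7%, 0, 5.43% and 0. Its start was 37.3 kb inside a mESC DMSO domain and 198 kb from the nearest mESC dTAG domain. Grin2b and Gria1 shared this pattern, with a covered body in mESC DMSO and almost none in the other sorted sets. Grin2a (chr16:9567898-9995560), its counterpart of the mature brain, had 0, 0, 0 and 9.35%. Grin3a (chr4:49661611-49845744), a glycine-binding subunit, had 94.6%, 70.6%, 84.8% and 50.5%, and its start was in a domain in both DMSO sets and in neither dTAG set. The start of Grin3a was 1.19 kb inside the domain in mESC DMSO and 3.81 kb outside in mESC dTAG, so that the mESC change spans 1 bin.

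Kainate receptor genes were either covered or free in all sorted sets. Grik1 (chr16:87895900-88290265) had 100%, 97.3%, 100% and 91.1%, and Grik2 (chr10:49094833-49788766) had 96.4%, 90.6%, 100% and 98.0%. Both encode subunits that form kainate channels by themselves. Grik3, of the same subgroup, and Grik4 and Grik5, which need a partner, had 0 in all 4 sorted sets, although Grik3 is 223 kb and Grik4 426 kb long. Grid1 (chr14:34820108-35583379), a delta receptor gene, had 78.9%, 46.5%, 72.4% and 53.5%, and its start was outside domains except in 2CLC dTAG, where it lay in a domain of 40 kb. Grid2ip had 0 in every set.

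Of the metabotropic receptor genes, 5 of 8 were covered and all 5 are long. Grm5 (chr7:87584168-88134907), of the group I receptors coupled to calcium release, had 99.9%, 95.5%, 100% and 97.3%. Grm3 (chr5:9485541-9725170) of group II had 100%, 78.8%, 97.9% and 99.7%, with the start in a domain throughout. The group III genes Grm7 (chr6:110645581-111567230) and Grm8 (chr6:27275119-28135178), which dampen transmitter release, had 99.4%, 97.8%, 99.5% and 68.0%, and 98.4%, 61.8%, 99.6% and 60.6%. Grm2, Grm4 and Grm6, each under 100 kb, had 0 in every set, as most genes of their length had in the sorted sets.

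GABA-A receptor genes lie largely in clusters of α, β and γ subunits. Neighbours share domains, so their values are not independent of each other. The chromosome 5 cluster of Gabrg1, Gabra2, Gabra4 and Gabrb1 spans 1398 kb and stayed covered in all sorted sets. Gabrg1 (chr5:70751047-70842617) and Gabra4 (chr5:71569749-71658308) had 100% in each. Gabrb1 (chr5:71658113-72149037) had 100%, 84.1%, 99.0% and 97.4%, and Gabra2 (chr5:70957597-71095849) had 96.6%, 100%, 100% and 96.6%. In mESC dTAG the starts of all 4 genes of this cluster lay in 1 domain of 2090 kb.

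On chromosome 7, Gabrg3 and Gabra5 lie next to each other and differed after depletion. Gabrg3 (chr7:56716465-57387188) had 100%, 97.8%, 99.6% and 89.9%. Gabra5 (chr7:57407672-57510059), a subunit abundant in the hippocampus, had 100%, 0, 70.2% and 0. In mESC DMSO both starts lay in 1 domain of 1315 kb, of which 81.7% remained in domains in mESC dTAG. The start of Gabra5 was then 110.5 kb from the nearest domain. The start of Gabrg3 was in a domain of both mESC sets and outside in both 2CLC sets. In 2CLC DMSO it lay 2.4 kb from a domain, in a gap of 5 kb, the width of 1 bin.

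On chromosome 11, Gabra6 and Gabrb2 are neighbours on opposite strands. Gabra6 (chr11:42306437-42321072), a subunit of cerebellar granule cells, had 100%, 100%, 100% and 0. Gabrb2 (chr11:42419757-42629028) had 95.2%, 68.9%, 97.6% and 68.9%. In 2CLC DMSO a single domain of 415 kb held both starts, of which 63.9% lay in domains after depletion in 2CLCs. The whole of Gabra6 was thus free in 2CLC dTAG alone among the sorted sets, while Gabrb2 kept most of its cover. The start of Gabrb2 lay only 0.02 kb inside the edge in 2CLC DMSO and in 2CLC dTAG, and its RefSeq start, 683 bases downstream, was outside domains in all 4 sorted sets.

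**Figure D3:**
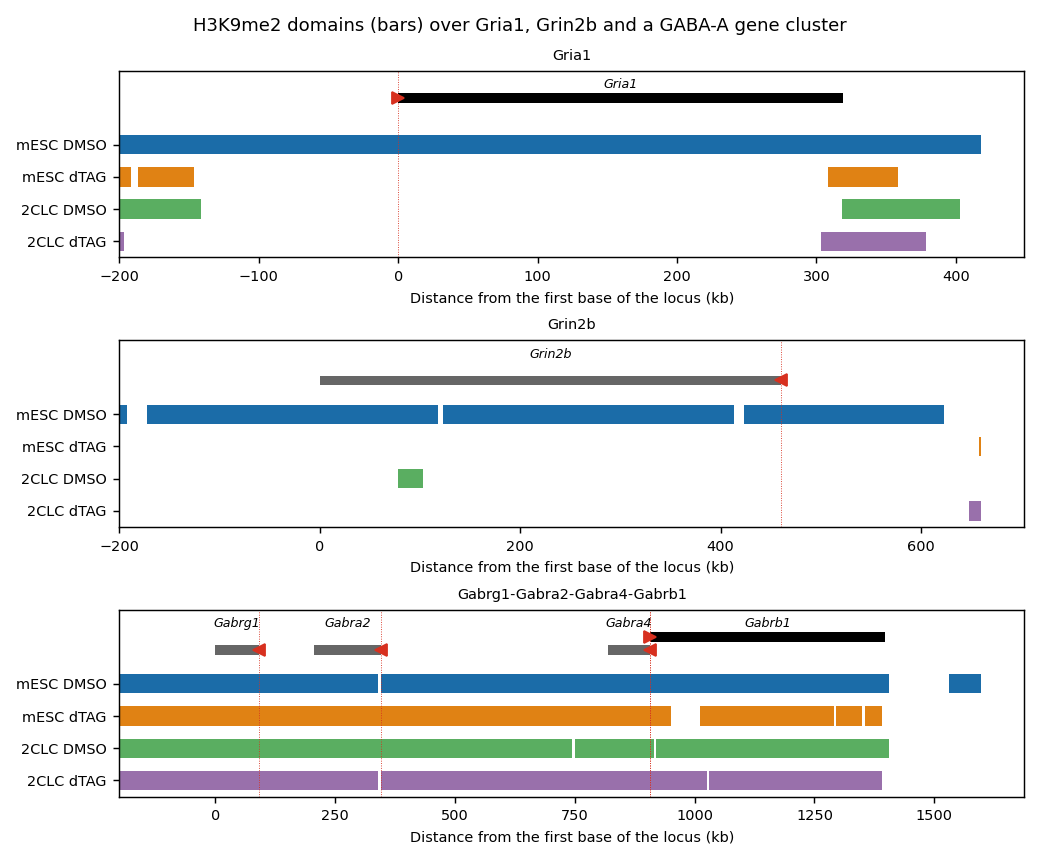
H3K9me2 domains (coloured bars, 1 row per sorted set) over Gria1, Grin2b and the chromosome 5 cluster of GABA-A receptor genes, by distance in kb from the first base of the gene or cluster. Genes are drawn on top, plus strand in black and minus strand in grey, with a red arrowhead at the start and a dotted line down from it. Grin2b holds no mESC dTAG domain (0% body cover), whereas the starts of all 4 genes of the cluster lie in 1 mESC dTAG domain.

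The ρ subunit genes, which form GABA receptors of the retina, followed another pattern. Gabrr1 (chr4:33132521-33163588) and Gabrr2 (chr4:33062999-33095865) lie side by side and had 0, 0, 0 and 54.9%, and 0, 0, 0 and 95.2%. A single 2CLC dTAG domain of 85 kb covered them, and in that domain 0% of bases were in any of the other 4 sets. Gabrr3 (chr16:59407332-59464504) had 69.4%, 0, 21.9% and 21.9%, with the start inside in both 2CLC sets and outside in both mESC sets. Gabrr1 and Gabrr2 were the 2 receptor genes with at least 50 points more body cover in dTAG than in DMSO in 2CLCs, against 5.42% of all genes. In mESCs there were 0 such receptor genes, against 4.40%.

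Nicotinic receptor genes were mostly free of domains, as were most genes of their length. Body cover was 0 in all 5 sets for 10 of 13, namely the muscle subunits Chrna1 and Chrnb1, the main brain pair Chrna4 and Chrnb2, the ganglionic cluster of Chrna3, Chrna5 and Chrnb4, the hair cell pair Chrna9 and Chrna10, and Chrna2. Of all genes under 100 kb, 62.7% had 0 in the 4 sorted sets. Chrna6 (chr8:27403212-27413944) and Chrnb3 (chr8:27368711-27399730), neighbours whose subunits assemble in midbrain dopamine neurons, both had 0, 0, 100% and 0. A 2CLC DMSO domain of 190 kb held both genes, of which 55.3% was in mESC dTAG domains and 31.6% in 2CLC dTAG domains without reaching them. Chrna7 (chr7:63098692-63212569), which forms channels by itself and is the only nicotinic gene over 100 kb, had 49.1%, 0, 93.0% and 0, with the start outside in all 4.

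After EHMT2 depletion in mESCs, 7 receptor gene starts left domains, against 4.86% of all genes, and 6 entered them, against 6.23%. All 7 belong to the 24 long receptor genes, a share of 29.2%, against 9.82% of all long genes. Of the 29 shorter receptor genes 0 left, against 4.23% of all genes under 100 kb. The long ones made up 7 of the 11 long receptor genes with the start in a mESC DMSO domain, against 43.9% of such long genes. Gabra5, Grin2b and Gria1 left domains together with 100, 96.7 and 96.7 points of body cover. Grik1 and Grin3a left with the start within 10 kb of a domain edge in dTAG, and body cover was lower by 2.65 and 24.0 points. The 6 that entered include Gabra2, Grm7, Grm5 and Gria4. These 4 were within 10 kb of an edge in DMSO, with differences in body cover between 4.47 points lower and 3.36 points higher.

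In 2CLCs, 8 starts left domains, against 4.07% of all genes, and 2 entered them, against 7.48%. Of the 24 long receptor genes 4 left, or 16.7%, against 9.06% of all long genes, and of the 29 shorter ones 4 left, or 13.8%, against 3.43%. The long ones were 4 of the 12 long receptor genes with the start in a 2CLC DMSO domain, against 38.6%. Chrna6, Chrnb3 and Gabra6 left with 100 points of body cover and Grin3a with 34.4. Gabra2 and Grik2 left across a gap of 5 kb and 10 kb, with body cover lower by 3.36 and 1.99 points. Gabrr1 and Grid1 entered. The start of 2 receptor genes, among them Grin3a, left domains in both cell states, against 1.60% of all genes, and the body cover of Grin3a was lower in dTAG in each.

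Body cover was lower in dTAG than in DMSO for most receptor genes that had any. In mESCs it was lower for 21 genes, higher for 3 and equal for 29, and in 2CLCs it was lower for 23, higher for 5 and equal for 25. Over all genes, cover was lower for 9.91% and higher for 10.7% in mESCs, and lower for 8.75% and higher for 13.7% in 2CLCs. Of the 24 long receptor genes, it was lower for 19 in mESCs, against 33.6% of all long genes, and for 18 in 2CLCs, against 30.9%. In mESCs, 7 genes had at least 50 points less, against 4.70% of all genes. Gabra5, Grin2b, Gria1 and Gabrr3 were among them. In 2CLCs there were also 7, against 3.46%, among them Chrna6, Chrnb3, Gabra6, Chrna7 and Gabra5. Gabra5 was thus lower by this margin in both cell states. Since covered genes alone can lose cover, the genes with at least 50% in DMSO were also taken on their own. Of 26 such receptor genes in mESCs, 9 had under 50% in dTAG, or 34.6%, against 23.8% of all such genes, and in 2CLCs it was 8 of 25, or 32.0%, against 18.5%. The direction depended on length. Of the 20 long ones in mESCs, 7 had under 50% in dTAG, or 35.0%, against 43.5% of all such long genes. In 2CLCs it was 3 of 18, or 16.7%, against 36.4%. Of those under 100 kb it was 2 of 6 in mESCs, or 33.3%, against 20.2%, and 5 of 7 in 2CLCs, or 71.4%, against 15.6%. The share was thus below that of all such genes among long receptor genes and above it among the few shorter ones.

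**Figure D4:**
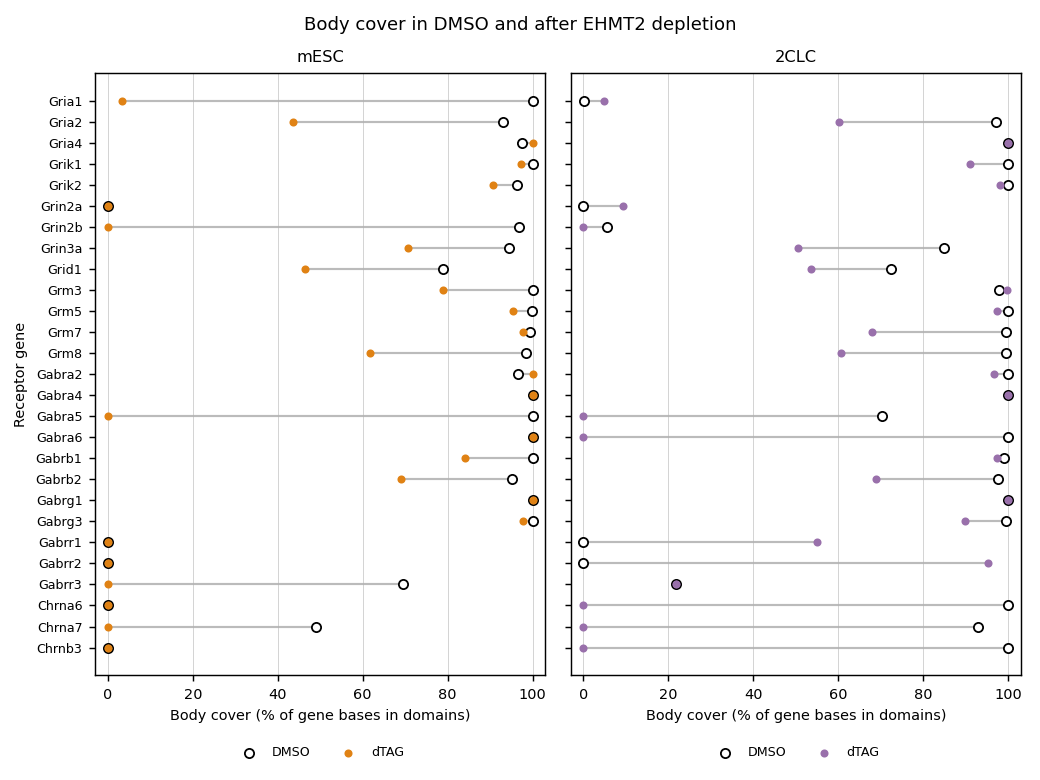
Body cover in percent of gene bases (x axis) of 27 receptor genes with any cover in the 4 sorted sets (rows), in DMSO (open circles) and dTAG (filled points), for mESCs and 2CLCs. Long grey lines to the left mark lower cover in dTAG, as for Gabra5 in mESCs (100% and 0), and Gabrr1 and Gabrr2 run to the right in 2CLCs.

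Across the 4 sorted sets, 15 receptor genes had at least 50% body cover in every set, or 28.3%, against 15.1% of all genes, and 21 had 0 in every set, or 39.6%, against 59.3%. Among long genes, 13 of 24 receptor genes were covered throughout, or 54.2%, against 13.7%. Starts were inside in all 4 sets for Gabra4, Gabrb1, Gabrg1 and Grm3, or 7.55% of receptor genes, against 14.4% of all genes. They were inside in some sets for 23, or 43.4%, against 18.5%, and in none for 26, or 49.1%, against 67.1%. Covered and free receptor genes differed in base composition. The 15 covered genes had a GC content between 35.6% and 40.4% (median 38.2%), and the 21 free genes between 43.2% and 58.6% (median 51.5%). Over all genes the medians of the same classes were 39.0% and 48.4%, and over all long genes 38.9% and 45.2%. In both of these larger groups the ranges of the classes overlapped. They were 27.3% to 71.3% and 31.4% to 74.7% over all genes, and 34.8% to 46.3% and 35.5% to 55.1% over all long genes. Soft-masked bases, which mark repeats, made up a median of 31.7% of the covered and 19.3% of the free receptor genes. These medians were 25.8% and 21.0% over all genes and 34.4% and 22.7% over all long genes. The covered receptor genes had a median of 2 other protein-coding gene starts within 500 kb on either side and the free ones 21. All genes of these classes had 19 and 18, all long genes of these classes had 2 and 10, and 13 of the 15 covered receptor genes are long. Length had a median of 394 kb in covered and 20.6 kb in free receptor genes, whereas over all genes it was 8.17 kb and 16.7 kb. Grik3 and Grik4, the free long genes, had a GC content of 50.3% and 48.0%, above the range of the covered genes. The 7 genes with at least 50 points less in mESC dTAG had between 35.8% and 44.7%. Genes are not replicates of each other, and no test was made on these values.

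Other genes of the synapse were taken from lists that hold fewer long genes, namely 4 of 17, 12 of 30 and 2 of 18, against 24 of the 53, and were not tested against the receptor genes. Of 17 further receptor subunit genes, such as those of glycine, muscarinic and GABA-B receptors, the start was in a domain for 2, 4, 2 and 2 in the order of sets used above, and at least 50% of the body for 3 in each. Chrm3, a muscarinic receptor gene of 485 kb, had a body cover of 97.9%, 68.1%, 61.4% and 53.0%. Of 30 genes for receptor partners such as scaffolds and auxiliary subunits, the start was in a domain for 1, 0, 0 and 1 in the same order of sets, and at least 50% of the body for 3, 2, 3 and 1. Dlg2, encoding a scaffold of excitatory synapses, had 97.1%, 39.0%, 86.7% and 35.0%, and Shisa6, an auxiliary AMPA receptor subunit, had 98.0%, 43.0%, 96.4% and 50.3%. Of 18 genes for transmitter synthesis and transport, 2 starts were in domains in each of the 4 sets, and at least 50% of the body for 4, 2, 4 and 2. The shares of starts in all genes ran from 21.4% to 25.5%. Slc1a2, the main glial glutamate transporter, had 96.2%, 0, 0 and 0, the pattern of Gria1 and Grin2b. The median body cover was 0 for each list in every set. Chrm3, Dlg2, Shisa6 and Slc1a2 were named after their values had been seen.

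In the unnamed set, 21 of 53 starts lay in domains, against 29.8% of all genes, and 22 of 24 long receptor genes had at least 50% body cover, against 49.0% of all long genes. Domains cover 63.3% of chromosomes 1 to 19 in that set, more than in any sorted set. Gria1, Grin2b and Gabra5, which were covered in mESC DMSO and had at most 3.29% in mESC dTAG, had 100%, 98.9% and 95.1% there. Chrna6 and Chrnb3, free in both mESC sets, had 100% and 98.9%. These values stand beside those of the sorted sets as a description, since the unnamed set belongs to no condition.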

How the data were processed

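H3K9me2 was profiled by ULI-NChIP, immunoprecipitation of native chromatin from few cells, in sorted mESCs and 2CLCs. Per the labels and the study's methods, the authors aligned reads to mm10 with STAR 2.7.10 in a mode that keeps reads with several matches, removed duplicates with Picard 2.26.0, scaled coverage with deepTools 3.5.1, and took log2 ratios of immunoprecipitation to input on a grid of 5 kb. SAMtools 1.14, bedtools 2.30.0 and R 4.1.2 are also listed. Domains were grown from bins above a high percentile of the ratio until a bin below a low percentile, so they show where the ratio is high within a set and are not a level of the mark. Reads assigned among repeated copies could shift edges. The deposited sets hold positions with a score of 0 in every line and no counts, so depth is unknown, no interval was given and the spread between replicates could not be computed. Whether replicates were pooled is not given in the sources used here.

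GENCODE M21 gave starts and bodies of 20807 protein-coding genes, and overlaps were computed base by base with Python 3.11.15 and numpy 2.4.6, with functions tested on simulated domains. Base composition and soft-masked bases came from GRCm38.p6, and promoter sequences from the RefSeq table of that build. The receptor genes and the lists of other synaptic genes were chosen with earlier results of these data known. The rule for genes named with values took those whose start differs between sorted sets, the 10 with the largest difference in body cover, the 5 with starts in the widest mESC DMSO domains, those within 1 Mb of another receptor gene and the 5 longest, 32 in all; Grm8, Gria2, Grin2a and further genes outside this rule were chosen after their values were seen or to account for further members. Some genes that match the pattern entered every count and median but are not reported by name here. Alternatives were a minimum domain width of 50 kb, joining of gaps up to 10 kb, the longest transcript as gene model, leaving out Grid2ip, counting neighbours as 1 locus, the 10 kb around the start in place of the start, and 80% in place of 50% body cover.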

Additional observations from a re-analysis of the deposited data

Results flagged for a closer look

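Grin2a was covered over 100% in the unnamed set, which belongs to no condition, and over 0 in mESC DMSO, mESC dTAG and 2CLC DMSO and 9.35% in 2CLC dTAG. A body covered over at least 50% in the unnamed set and less in all 4 sorted sets was found for 7.15% of all genes.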

How the results depend on the processing

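The counts and medians were recomputed under each alternative, and of 92 recomputed values 80 stayed within 1.5 times the reported count or within 5 points of the reported median. Not all of them could move. Grid2ip had 0 body cover and its start outside domains in every set, so leaving it out could change no count. The median in both dTAG sets was 0 as reported and under each alternative. The tally is therefore no measure of how firm the results are. Of the counts, those of starts that entered domains moved most. In mESCs they numbered 6 as reported, 1 with gaps up to 10 kb joined and 3 when at least 50% of the 10 kb around the start had to lie in domains, and in 2CLCs they numbered 2 as reported and 1 with domains of at least 50 kb alone. The median body cover in mESC DMSO was 49.1% as reported, 59.2% without Grid2ip and 0 with neighbours counted as 1 locus. Counting neighbours this way left 41 loci, and then starts in domains numbered 8 in mESC DMSO, 8 in mESC dTAG and 12 in 2CLC DMSO, bodies with at least 50% cover 11 in mESC dTAG, starts that left domains in 2CLCs 5, and the median body cover in 2CLC DMSO was 0. With a limit of 80% body cover, 12 bodies passed in 2CLC dTAG in place of 19. The cause of these shifts was not tested beyond the construction of each alternative. No paired analysis was possible because each condition has 1 set of positions and no replicate values. Leaving out single replicates was not possible for the same reason. The grid of 5 kb limits how finely a start can be placed.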

Other observations

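Cover lost after depletion was uneven along the covered genes in 2CLCs. Of the 18 long receptor genes with at least 50% body cover in 2CLC DMSO, the 10% of the body next to the start had a mean cover of 75.5% in DMSO and 42.4% in dTAG, and the last 10% had 94.1% and 78.4%. Over 640 long genes chosen the same way, these values were 78.5% and 54.8% next to the start and 83.7% and 60.3% at the end. In mESCs, the 20 long receptor genes had 82.1% and 47.7% next to the start and 99.0% and 57.5% at the end.

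The domain that held the start of Gria1 in mESC DMSO measured 1295 kb, and Gria1 had 0 other protein-coding gene starts within 500 kb. The start of Grin2b lay in a mESC DMSO domain of which 0% of bases were in any other sorted set.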
